A study of Mus musculus with 2 samples.

Results

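The 52 genes described here act in DNA replication or in mitosis. They were taken by gene symbol from the GENCODE M21 gene tables, and all 52 were found among the 55536 annotated genes. Of these, 28 are replication genes and 24 are mitotic genes. The cells were primary regulatory T cells (Treg), a CD4 lineage that holds immune responses in check, from a male mouse aged 9 weeks. Polyadenylated RNA was sequenced in 2 technical libraries of 1 biosample, so there was no second condition. Neither strain, treatment nor sorting markers are stated in the labels or headers used here. Spread between libraries is technical, and variation among mice was not measured.

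Before S phase, origin recognition proteins, Cdc6 and Cdt1 load the ring-shaped Mcm2 to Mcm7 helicase onto DNA. Cdc45 and the GINS complex then turn that helicase on, while Pcna, the sliding clamp, and its loader keep polymerases on the template. Later, Cdk1 with cyclins A and B drives mitosis, and kinases, motor proteins and the anaphase-promoting complex carry out chromosome separation. E2F factors act mainly on replication genes, whereas mitotic genes are repressed and later activated through a promoter element called the CHR (cell cycle genes homology region). Treg cells in mice are known to include a dividing share.

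Library 1 held 34697128 estimated counts and library 2 held 32049199. All 10 Treg and T cell markers were detected, meaning that they reached 1 TPM, a length-corrected share of all transcripts, in each library. Among them Foxp3, the transcription factor that defines the lineage, was lowest, with 108 TPM in library 1 and 111 in library 2. Markers of other cell types were present at various levels. Of 8 B cell markers 5 were detected, with summed levels of 49.1 and 44.1 TPM. Of 7 germinal centre and plasma cell markers 3 were detected, with sums of 159 and 137 TPM, of which Xbp1, which T cells also express, made up most. The plasma cell gene Mzb1 stood at 0 and 0.10 TPM. Of 7 thymocyte markers 4 were detected, with sums of 71.2 and 65.8 TPM. Themis made up most of these sums at 43.9 and 38.5 TPM, and Cd8b1 had 24.1 and 23.3 TPM. Rag1, Rag2 and Ptcra did not pass 0.04 TPM in either library. Erythroid markers were detected in 5 of 8 cases, with sums of 384 and 351 TPM that were mostly globin. Hba-a2 had 141 and 126 TPM, above Foxp3, and Klf1 was at 0 in library 2. Myeloid markers were detected in 2 of 8 cases, with sums of 20.98 and 20.51 TPM, and S100a8 had 0 and 3.57 TPM and S100a9 0 and 2.11 TPM, from 0 counts in library 1 and 32 and 20 counts in library 2. The part of such cells in the levels below was not tested.

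Replication genes were present at several times the level of mitotic genes. All 28 replication genes and 23 of the 24 mitotic genes were detected, against a background of 48.0% of 22028 protein-coding genes. The median replication gene had 20.2 TPM in library 1 and 19.7 TPM in library 2, and the median mitotic gene 3.63 and 4.56 TPM. The ratio of these medians was 5.56 in library 1 and 4.33 in library 2. On the log2(TPM + 1) scale the medians differed by 2.20 and 1.90, a mean of 2.05 ± 0.21 (SD, n = 2 technical libraries). Of the replication genes, 19 of 28 reached 10 TPM, compared with 4 of 24 mitotic genes, namely Cenpa, Stmn1, Top2a and Birc5. Of the replication genes, 23 lay above the median mitotic gene, while only Cenpa and Stmn1 among mitotic genes lay above the median replication gene. Against the 10583 detected protein-coding genes, whose median was 31.9 and 30.1 TPM, the median replication gene ranked above 38.0% and the median mitotic gene above 12.2%. In bulk RNA a smaller number of dividing cells and less RNA per cell cannot be told apart.

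**Figure D1:**
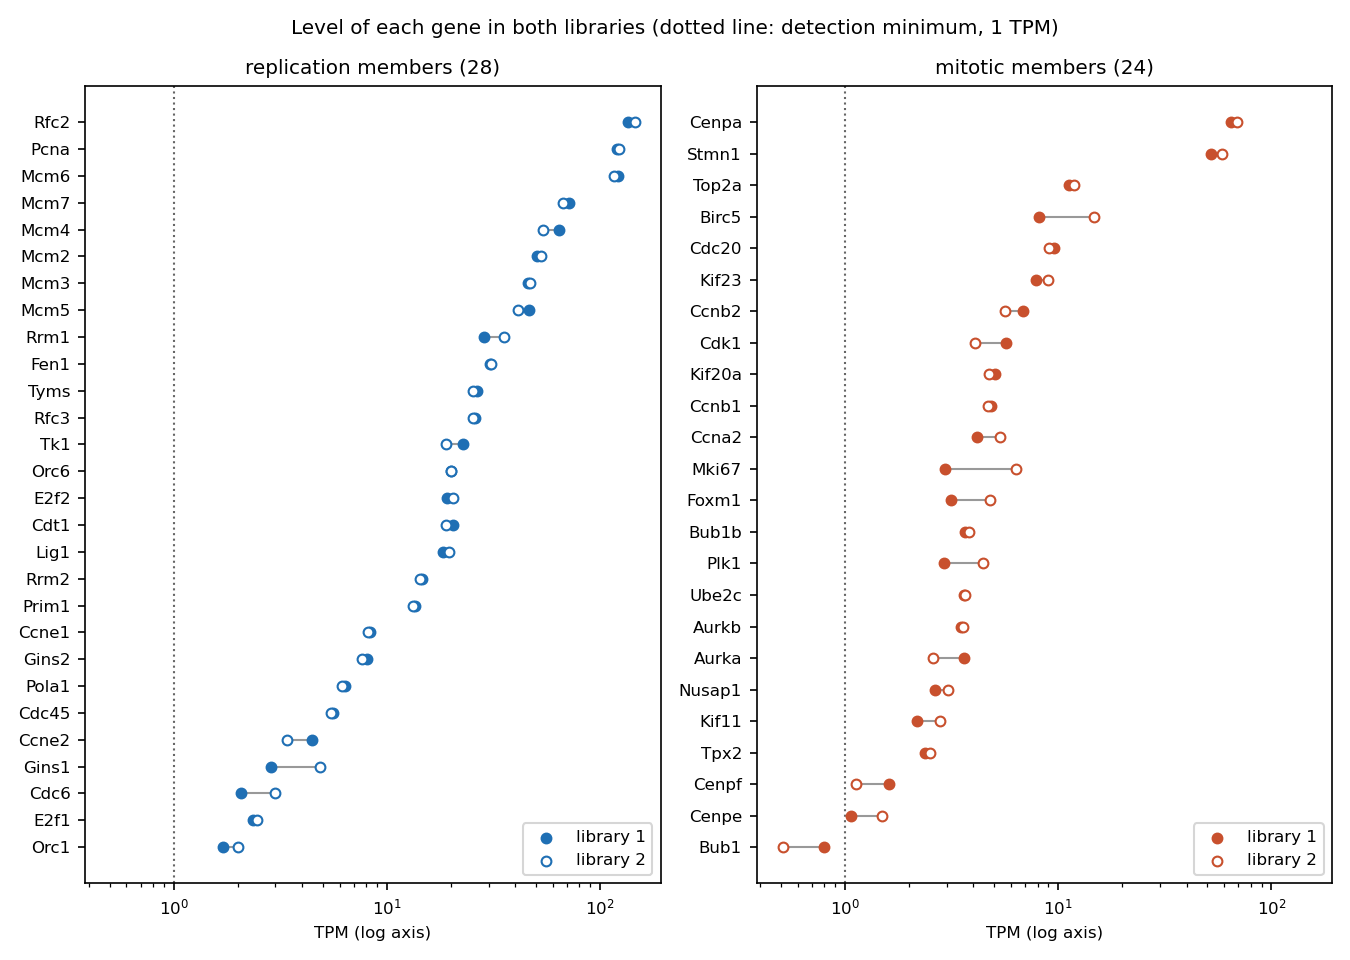
Level of each replication gene (left, blue) and mitotic gene (right, red) on a log axis in TPM, with filled points for library 1 and open points for library 2. Most replication genes lie above 10 TPM and most mitotic genes below 5 TPM, and Bub1 alone lies under the detection minimum of 1 TPM.

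The same gap was seen in the medians of further genes of each pathway, although with more spread in the mitotic list. These lists too were chosen with earlier results of these data known, so they are not an independent repeat. All 42 other replication genes were detected, with medians of 20.9 and 19.8 TPM. The highest were Slbp (the histone mRNA binding protein) at 107 ± 3.84 TPM, Rpa1 (a single-strand DNA binding subunit) at 103 ± 8.81 TPM and Orc3 (an origin recognition subunit) at 94.3 ± 0.297 TPM. The lowest were Clspn at 1.48 ± 0.361 TPM, Ticrr at 1.57 ± 0.665 TPM and Mcm10 at 1.76 ± 0.99 TPM, which act in checkpoint signalling and origin firing. Of 52 other mitotic genes 41 were detected, with medians of 3.26 and 2.89 TPM. Smc4, a condensin subunit, stood apart with 694 TPM in library 1 and 691 in library 2. Pttg1 (securin) and Hmgb2 (a chromatin protein) followed at 127 ± 4.03 and 83.8 ± 6.48 TPM. Summed levels of these further lists did not show the gap. Other replication genes summed to 1339 and 1252 TPM and other mitotic genes to 1272 and 1281 TPM, most of it Smc4. For the members the sums were 938 and 933 TPM against 214 and 237 TPM. At the low end were Kif14, Anln and Sgo2a, which act in cytokinesis and chromatid cohesion, at 0.23 ± 0.0566, 0.585 ± 0.0778 and 0.605 ± 0.318 TPM.

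**Figure D2:**
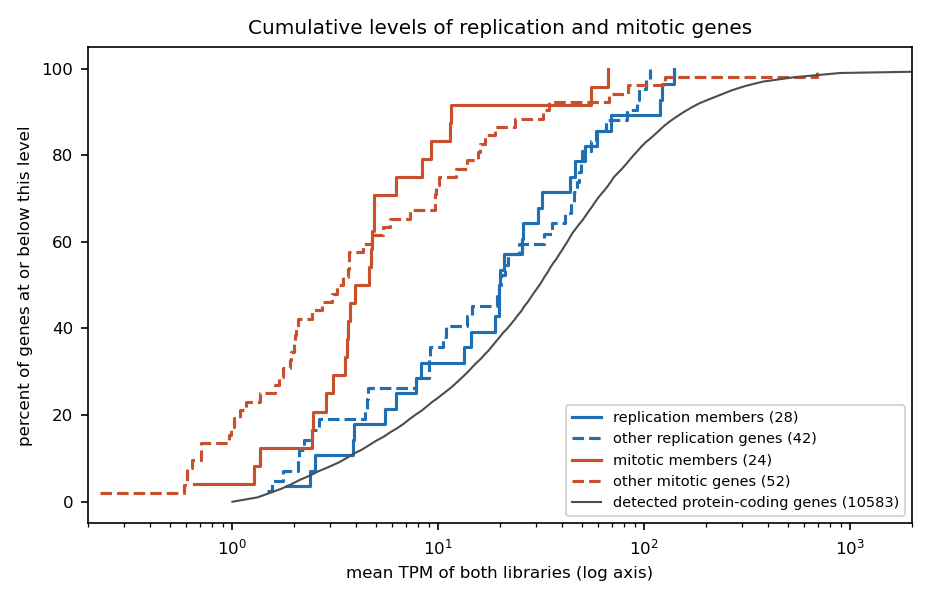
Cumulative percent of genes at or below a mean TPM (log axis) for the 28 replication and 24 mitotic members (solid lines), 42 other replication and 52 other mitotic genes (dashed lines) and 10583 detected protein-coding genes (grey). Both mitotic curves lie left of both replication curves over most of the range, and both replication curves lie left of the grey curve above about 5 TPM.

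Among the 10 origin licensing genes the 6 helicase subunits were highest, Orc6 and Cdt1 lay near the replication median, and Cdc6 and Orc1 were low. Mcm6 had 122 TPM in library 1 and 116 TPM in library 2. Mcm7 had 71.2 and 67.3 TPM, and Mcm4 had 64.1 and 54.2 TPM. Mcm2, Mcm3 and Mcm5 lay between 41.1 and 53.1 TPM in both libraries. All 6 ranked in the upper part of detected protein-coding genes, above 61.0% to 85.8% of them. The subunits act in equal number in the ring, yet Mcm6 RNA stood at 2.64 and 2.83 times that of Mcm5, the lowest. In library 2 Mcm4 and Mcm2 differed by less than the spread of Mcm4 between libraries. The loading factor Cdt1 had 20.4 and 19.0 TPM, close to the 20.3 and 19.3 TPM of its inhibitor Gmnn (geminin). Its partner Cdc6 had only 2.07 and 2.97 TPM. Orc1, the origin recognition subunit whose level is known to follow the cell cycle, was the lowest replication gene at 1.70 and 2.01 TPM. Orc4, a subunit of the same complex, had 101 and 85.2 TPM, which was 59.2 and 42.4 times the Orc1 level. Orc6 had 20.0 and 19.9 TPM.

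Helicase activation genes were low throughout. Cdc45 had 5.57 and 5.48 TPM, Gins2 had 8.08 and 7.65 TPM and Gins1 had 2.87 and 4.84 TPM. The GINS subunits were unequal: Gins4 from the wider list had 48.3 and 43.5 TPM. Gins1 rested on 58 and 88 estimated counts, the fewest of any replication gene in library 1.

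At the fork, Pcna had 120 and 123 TPM, close to Mcm6 in library 1 and above it in library 2. Rfc2, a subunit of the loader that places Pcna on DNA, had 136 and 145 TPM, the highest of all 52 genes. Its partner Rfc3 had 25.9 and 25.5 TPM. Fen1, the flap nuclease, had 30.3 and 30.9 TPM, and Lig1, which seals nicks, had 18.4 and 19.5 TPM. Of the polymerase alpha-primase complex, the primase Prim1 had 13.5 and 13.3 TPM and the catalytic subunit Pola1 had 6.37 and 6.13 TPM, while Pola2 from the wider list had 38.4 and 33.0 TPM. The Rfc2 value is taken up again with its transcripts.

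Genes of nucleotide supply lay near the middle of the replication genes. Rrm1 and Rrm2 encode the large and small subunit of ribonucleotide reductase, which makes deoxynucleotides. Rrm1 had 28.5 and 35.3 TPM and Rrm2 had 14.6 and 14.3 TPM, a ratio of 1.95 and 2.48. Rrm2b, the small subunit that resting cells use, had 21.6 and 20.9 TPM, 1.48 and 1.47 times Rrm2. Tyms, which makes thymidylate, had 26.4 and 25.4 TPM, and the thymidine kinase Tk1 had 22.7 and 19.0 TPM. All 5 genes of supply outside S phase were detected. Samhd1, which breaks down deoxynucleotides, was by far the highest of them at 593 and 583 TPM, followed by Dguok at 109 and 104 TPM and Tk2 at 81.1 and 75.3 TPM. Dck, the deoxycytidine kinase, had 52.2 and 52.3 TPM.

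Control genes of the G1 to S transition were mostly low. E2f1, an activating E2F, had 2.36 and 2.45 TPM, whereas E2f2, also an activator, had 19.2 and 20.4 TPM, 8.14 and 8.31 times as much. Cyclin E genes had 8.32 and 8.16 TPM for Ccne1 and 4.44 and 3.40 TPM for Ccne2. E2f4, which acts mostly as a repressor in resting cells, had 140 and 136 TPM, 59.5 and 55.7 times E2f1. The pocket protein gene Rbl2 had 101 and 84.3 TPM, and Rbbp4, the histone-binding subunit of several complexes including DREAM, had 274 and 282 TPM. Among these 18 RB, E2F and DREAM regulators 15 were detected. The lowest were Mybl1 at 0.07 and 0.03 TPM, E2f8 at 0.73 and 0.78 TPM and E2f7 at 0.64 and 1.77 TPM. E2f7 and E2f8 encode repressors of the late S phase, and Mybl1 is a relative of the mitotic activator Mybl2.

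Among mitotic genes the proliferation marker Mki67 had 2.96 TPM in library 1 and 6.31 TPM in library 2. Top2a, the topoisomerase that untangles chromosomes, had 11.2 and 11.8 TPM. Cdk1 had 5.70 and 4.09 TPM, Ccnb1 had 4.84 and 4.70 TPM and Ccnb2 had 6.83 and 5.66 TPM. Ccna2, the cyclin of S phase and mitotic entry, had 4.15 and 5.34 TPM. The 4 genes of this kinase group thus all lay between 4.09 and 6.83 TPM, and their order changed between libraries. Foxm1, the transcription factor that drives many mitotic genes, had 3.13 and 4.81 TPM.

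Checkpoint and kinase genes were lower still. The checkpoint kinase gene Bub1 was the one member not detected, at 0.80 and 0.51 TPM from 51 and 34 estimated counts. Bub1b, its relative, had 3.65 and 3.81 TPM. Plk1 had 2.91 and 4.42 TPM, Aurka 3.60 and 2.58 TPM and Aurkb 3.51 and 3.59 TPM. Birc5 (survivin), which acts with Aurkb in the passenger complex, was higher at 8.13 and 14.7 TPM. The anaphase-promoting complex genes Cdc20 and Ube2c, an activator and an E2 enzyme, had 9.52 and 9.02 TPM and 3.61 and 3.66 TPM.

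Kinetochore genes differed most among mitotic genes. Cenpa, the centromeric histone H3, had 64.8 and 68.7 TPM, while the kinetochore proteins Cenpe and Cenpf had 1.07 and 1.49 TPM and 1.61 and 1.12 TPM. The ratio of Cenpa to Cenpe was 60.6 and 46.1. Spindle and cytokinesis genes Kif11, Kif20a, Kif23, Tpx2 and Nusap1 lay between 2.18 and 8.97 TPM in both libraries. Stmn1 (stathmin), which takes microtubules apart and is also used outside mitosis, had 52.3 and 58.7 TPM. Without Cenpa and Stmn1, the highest of the 24 mitotic members stood below each of Mcm2 to Mcm7, the lowest of which was 4.07 and 2.80 times it.

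The gene total can hide which transcripts carry it, since the gene tables add up protein-coding transcripts and others such as retained introns (transcripts that keep an intron) and targets of nonsense-mediated decay (transcripts with an early stop, which cells break down). Protein-coding transcripts took 72.3% and 71.0% of the summed TPM of replication genes and 66.1% and 68.5% of that of mitotic genes. By estimated counts these shares were higher, at 87.3% and 87.0% in replication genes and 76.3% and 78.1% in mitotic genes. Retained introns took 20.0% and 20.5% of the TPM in replication genes and 11.8% and 9.70% in mitotic genes. Rfc2 alone supplied 112.5 of 187 and 119 of 191 TPM of the replication total, and without it the share was 9.30% and 9.13%. By estimated counts the order was the other way, with 8.90% and 8.83% in replication genes and 12.5% and 10.6% in mitotic genes. Decay targets took 4.91% and 5.37% of the TPM in replication genes and 18.3% and 18.6% in mitotic genes. Cenpa supplied 36.3 of 39.3 and 43.5 of 44.0 TPM of the mitotic total, and without it the share was 1.96% and 0.267%. In 23 of 28 replication genes and 20 of 24 mitotic genes the protein-coding share of TPM was 50% or more in both libraries.

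The exceptions included high genes, such as Rfc2 and Cenpa, and also genes of lower level. Gins2, Tk1, Kif23, Foxm1 and Cdk1 were under 50% of TPM in at least 1 library. By estimated counts the share was 62.9% and 58.7% in Tk1, 61.05% and 67.8% in Kif23 and 93.8% and 76.4% in Foxm1. Cdk1 had 74.4% and 100% by counts, and Gins2 had 35.3% and 87.4%. Rfc2, at chr5:134581366-134601805 on the plus strand of GRCm38, had 1.41% and 1.74% of its TPM on its protein-coding transcript, or 1.91 and 2.52 TPM. By estimated counts that share was 8.25% and 10.01%. Its leading transcript, Rfc2-204, is a retained intron and took 46.7% and 46.8% of the TPM. Rfc2 overlaps Lat2, which is transcribed from the opposite strand. Of the 50-base words of the protein-coding Rfc2 transcript, 19.3% occur on the other strand of transcripts of other genes. The other Rfc2 transcripts, which held most of its TPM, were not searched. Tyms had 3.83% and 6.23% on protein-coding transcripts, or 1.01 and 1.58 TPM, and 10.3% and 16.8% by counts. Its leading transcript by TPM was Tyms-207 in library 1 and Tyms-205 in library 2, both decay targets. By estimated counts the retained intron Tyms-206 led, at 41.4% and 41.3%. Cenpa had 21.4% and 17.5%, or 13.9 and 12.0 TPM, with the decay target Cenpa-202 leading by TPM at 35.3% and 48.2%. By estimated counts Cenpa-202 had 24.2% and 34.5%, and the retained intron Cenpa-208 had 36.1% and 34.1%. Lig1 had 30.2% and 27.3%, or 5.56 and 5.34 TPM, and 11.8% and 12.4% by counts. By contrast Mcm6, Mcm2 and Stmn1 had 97.7% or more on protein-coding transcripts in both libraries. Counting protein-coding transcripts alone, the median replication gene had 12.6 and 12.4 TPM and the median mitotic gene 3.06 and 3.60 TPM. The difference of medians was then 1.65 on the log2(TPM + 1) scale, smaller than 2.05 by more than the SD of 0.21. With short reads the split between transcripts is a model estimate.

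**Figure D3:**
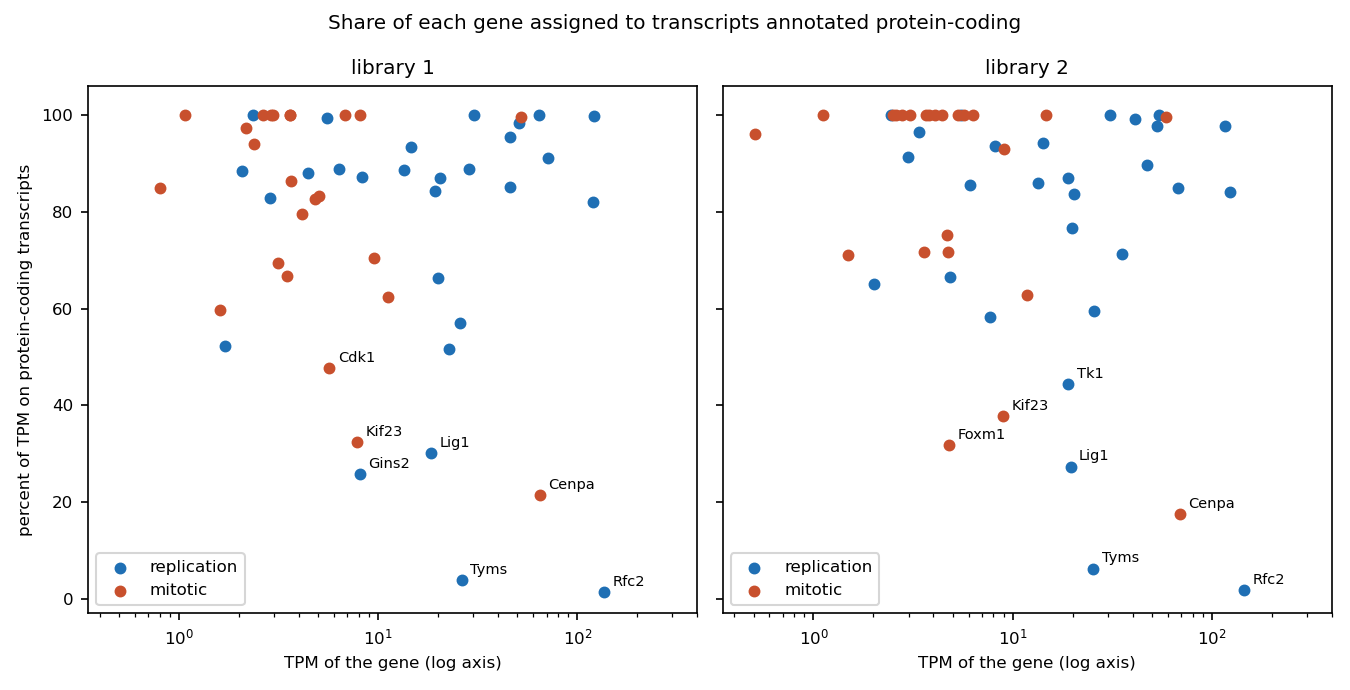
Percent of each gene's TPM on transcripts annotated protein-coding against the gene's TPM (log axis) in library 1 (left) and library 2 (right), with replication genes in blue and mitotic genes in red, and names for genes under 50%. Rfc2, the gene with the highest TPM, lies near 0 in both libraries, as does Tyms.

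Promoter windows from RefSeq on GRCm38.p6, 250 bases before and 50 after the annotated start, were matched by symbol to 41 of the 52 genes, 23 replication and 18 mitotic. The genes without a window were Mcm4, Gins1, Gins2, Rfc2, Ccne2, Ccna2, Aurkb, Kif20a, Tpx2, Foxm1 and Stmn1. The promoters of the 2 highest genes of each module that hold its own word before the start are shown as examples of each word in its surroundings. Capitals mark an E2F word (TTTCCCGC, TTTCGCGC, TTTGCCGC or TTTGGCGC) in Mcm6 and Mcm7 and a CHR word (TTTGAA or TTCGAA) in Top2a and Cdc20, on either strand. All 4 are on the minus strand and are written 5′ to 3′ as the gene reads, from chr1:128359706-128359955 for Mcm6, chr5:138172030-138172059 for Mcm7, chr11:99024190-99024439 for Top2a and chr4:118437353-118437593 for Cdc20.
Mcm6: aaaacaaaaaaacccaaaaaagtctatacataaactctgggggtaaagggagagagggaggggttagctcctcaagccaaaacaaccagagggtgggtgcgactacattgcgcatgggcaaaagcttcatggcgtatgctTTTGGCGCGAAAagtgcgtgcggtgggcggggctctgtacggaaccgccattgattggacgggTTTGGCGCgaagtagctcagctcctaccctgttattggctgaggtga
Mcm7: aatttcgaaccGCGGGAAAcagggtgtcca
Top2a: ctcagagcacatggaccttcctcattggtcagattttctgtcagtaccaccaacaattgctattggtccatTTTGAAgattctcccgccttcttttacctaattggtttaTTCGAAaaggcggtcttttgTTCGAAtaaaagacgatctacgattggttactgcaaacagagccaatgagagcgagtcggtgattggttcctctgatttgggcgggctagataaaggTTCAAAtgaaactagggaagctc
Cdc20: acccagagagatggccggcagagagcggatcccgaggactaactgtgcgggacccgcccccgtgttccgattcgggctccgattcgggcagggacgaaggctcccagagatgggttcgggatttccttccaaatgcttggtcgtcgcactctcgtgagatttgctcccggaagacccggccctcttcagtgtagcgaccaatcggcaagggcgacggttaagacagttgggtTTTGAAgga
The Mcm6 words begin at -110, -106 and -47 from the start, and the first of these overlaps the second, which reads on the other strand. The Mcm7 word begins at -165, inside the first exon of the longer transcript Mcm7-201 and inside an exon of Ap4m1 on the opposite strand. For this reason only 30 bases are shown. Mcm7-201 was the leading Mcm7 transcript, with 64.9% and 60.1% of the TPM, so for it the word lies after the start. Top2a holds CHR words at -179, -140, -120 and -23, and Cdc20 holds 1 at -18.

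Counted over whole windows, an E2F word was present in 11 of 23 replication genes (47.8%) and in 1 of 18 mitotic genes (5.56%, Cdk1), compared with 3.29% of 17492 protein-coding genes. A CHR word was present in 6 of 23 replication genes (26.1%) and 14 of 18 mitotic genes (77.8%), compared with 20.2% of protein-coding genes. CCAAT was present in 15 of 23 (65.2%) and 16 of 18 (88.9%), compared with 42.3%. All 14 mitotic genes with a CHR word also held CCAAT, as did 5 of the 6 such replication genes, a pair found in 8.22% of protein-coding genes. Many words lay after the start. With only the bases before it, E2F words remained in 7 replication genes and CHR words in 8 mitotic genes, against 2.72% and 18.4% of protein-coding genes. These 7 include Mcm7, whose word lies inside its leading transcript. Words at positions after the start include CHR in Cenpa at 17 and in Plk1 at 31. Orc1, the lowest replication gene, held an E2F word at -27, while Pcna held none in its window. A match is a description of letters and not of a bound site.

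**Figure D4:**
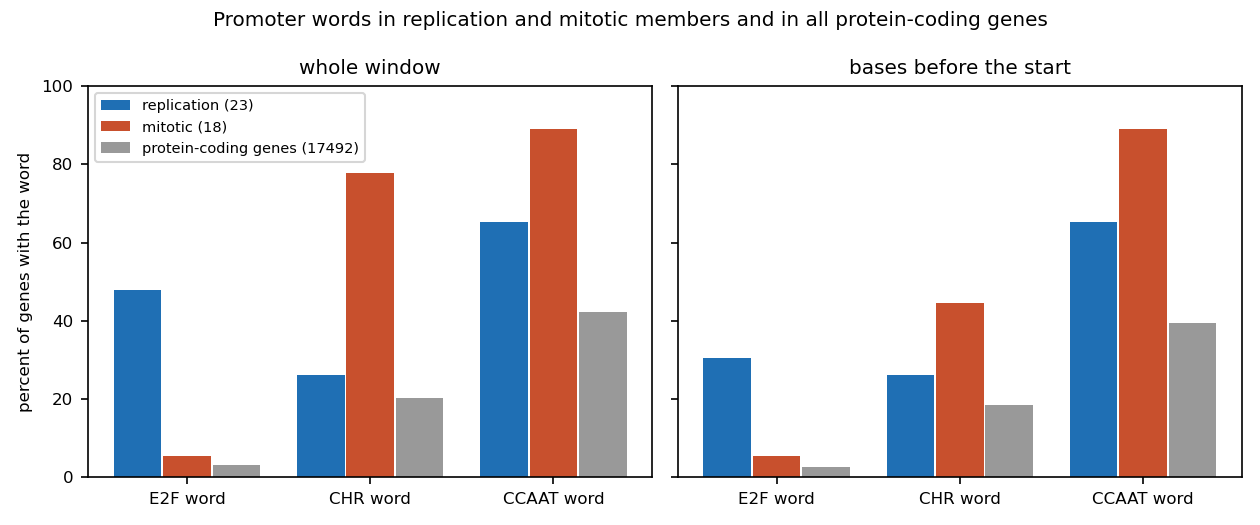
Percent of genes with an E2F, CHR or CCAAT word in the whole window (left) and in the bases before the start (right), for 23 replication genes (blue), 18 mitotic genes (red) and 17492 protein-coding genes (grey). The E2F bar is highest in replication genes and the CHR bar in mitotic genes, in both panels.

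The libraries were then compared gene by gene, as a measure of how firmly each level stands. For each of 18746 genes, the pair of estimated counts was tested by an exact binomial test (two-sided, Benjamini-Hochberg adjusted), which covers counting error only. Over all genes 19.2% were called higher in library 1 and 17.2% higher in library 2. Among replication genes 3 of 28 were higher in library 1 (Mcm4, Mcm7 and Tk1) and 9 were higher in library 2 (Mcm2, Mcm3, Cdc6, Gins1, Pcna, Rfc2, Lig1, Rrm1 and E2f2). Among the 24 mitotic genes 8 were called, all of them higher in library 2 (Mki67, Ccna2, Bub1b, Plk1, Birc5, Kif11, Kif23 and Stmn1). The median log2 ratio of library 1 over library 2 was -0.06 in replication genes and -0.21 in mitotic genes, against -9e-04 over all genes. In the 52 other mitotic genes 10 were higher in library 1 and 13 in library 2, with a median of -0.03. In the 42 other replication genes 11 were higher in library 1 and 3 in library 2, with a median of 0.02.

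Birc5 differed most among the called genes, with 165 estimated counts in library 1 and 290 in library 2. Its log2 ratio was -0.93, with a 95% counting interval of -1.21 to -0.65 and a binomial adjusted p of 4.36e-10. Plk1 had 132 and 195 counts, a log2 ratio of -0.68 and an adjusted p of 2.12e-04. Ccna2 had 223 and 320 counts, a log2 ratio of -0.63 and an adjusted p of 4.04e-06. Gins1 had 58 and 88 counts, a log2 ratio of -0.71 and an adjusted p of 0.0128. In the other direction Mcm4 had 4798 and 3865 counts, a log2 ratio of 0.20 and an adjusted p of 4.71e-09, while Tk1 had 548 and 410 counts and a log2 ratio of 0.30. When the spread between libraries was added through edgeR's exact test with a common dispersion, 0 of the 52 genes passed, against 2.98% of all genes. At an unadjusted p under 0.05 that test had 0 replication genes and 1 mitotic gene. The dispersion was estimated from the same libraries taken as 1 group.

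**Figure D5:**
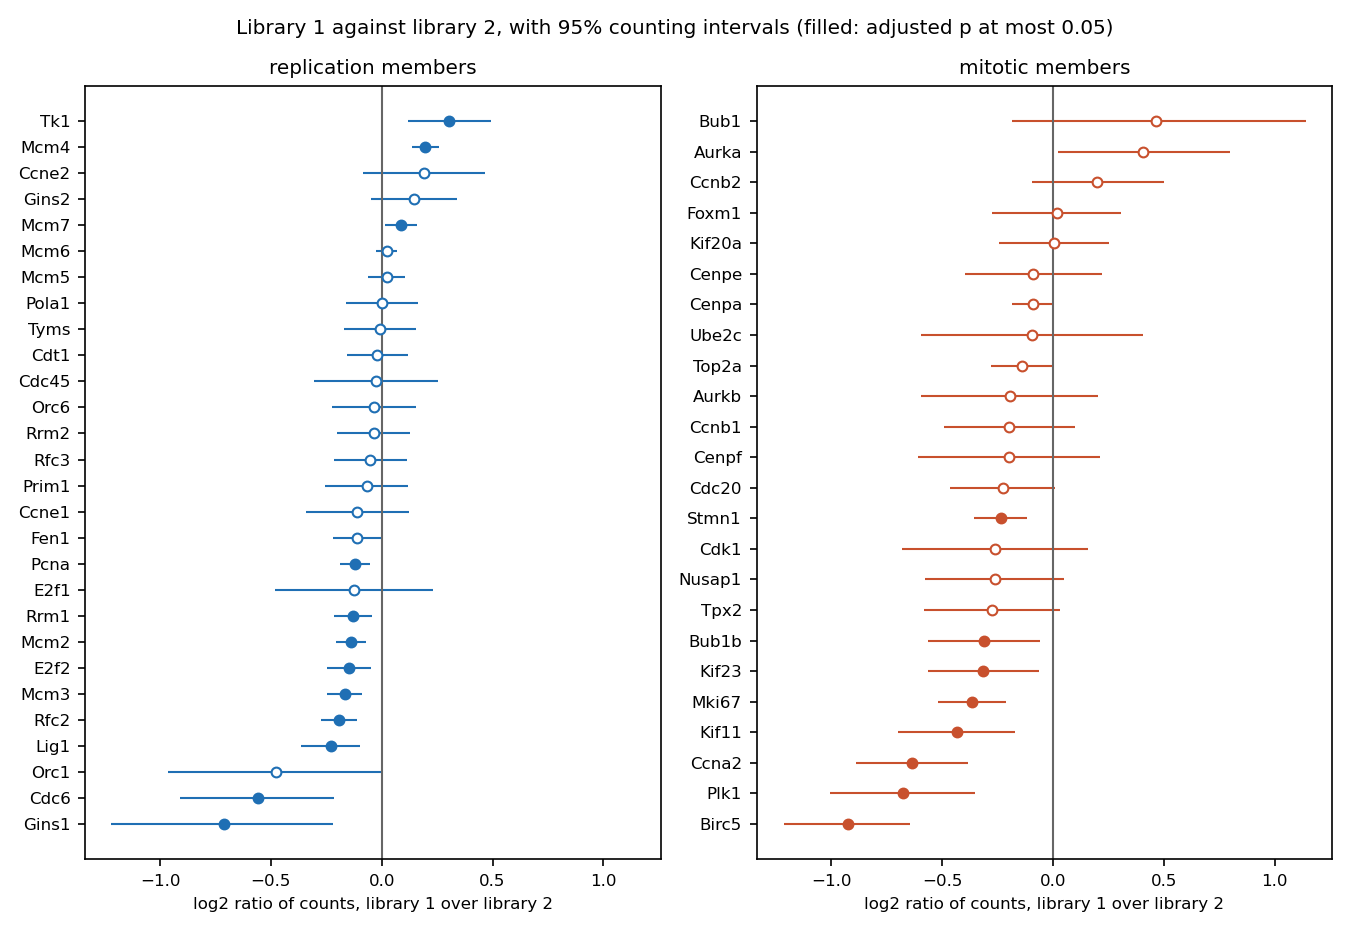
Log2 ratio of estimated counts, library 1 over library 2, for replication genes (left) and mitotic genes (right), with 95% counting intervals and filled points where the binomial adjusted p was at most 0.05. All 8 filled mitotic genes lie left of 0, and 3 of the 12 filled replication genes lie right of it.

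Whole-number counts made on GENCODE M4 were a second count of the same libraries, with smaller totals. Across all genes 9.76% were higher in library 1 and 4.62% were higher in library 2 in these tables. Of the 52 genes, 1 replication gene (Orc1) and 3 mitotic genes (Mki67, Ccna2 and Birc5) were called, all higher in library 2. Birc5 had 54 and 99 M4 counts and Mki67 had 532 and 654. M4 counts amounted to a median of 60.1% and 59.0% of the M21 estimated counts in replication genes and 73.1% and 74.6% in mitotic genes, against 44.2% and 45.3% in detected protein-coding genes. Stmn1 was lowest, at 3.95% and 3.96%, followed by Pcna at 12.1% and 12.2%. The protein-coding transcripts of both share many 50-base words with transcripts of other genes on the same strand. Stmn1 shared 25.5% of them, most with Gm11223, and Pcna 31.8%, most with Pcna-ps2. For every member, words were taken from protein-coding transcripts only. Ccnb1 shared 40.6% and had 18.7% and 16.2% of its counts in M4. Low M4 shares were also seen where the protein-coding transcripts shared 0 words on either strand. Cenpa had 23.2% and 24.7% and E2f2 24.5% and 23.7%. The Cenpa transcripts of other classes, which held most of its TPM, were not searched. Outside the members, the abundant gene Samhd1 had 24531 and 23466 estimated counts but only 3926 and 3957 M4 counts. It was not searched for shared words. Mcm6, with 7488 and 6809 estimated counts, had M4 shares of 46.3% and 47.2%. Whether M4 shares depend on gene level or on shared words was not tested. Levels of genes that share words are uncertain, and 8 of the 52 shared 5% or more on the same strand. A further 10 did so only on the opposite strand, led by Fen1 at 76.7% and Gins2 at 70.3%. Whether counting used strand is not stated in the labels or headers used here.

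TPM and counts did not always move together. In 4 genes, Mki67, Foxm1, Cdk1 and Cenpf, the ratio between libraries differed over 1.5-fold between the TPM and the counts. Mki67 had 627 and 746 estimated counts, yet its TPM was 2.96 and 6.31. In library 1 all of it was on Mki67-201, and in library 2 44.8% of the TPM was on Mki67-202, from 30.6 estimated counts. The assigned length of Mki67 in library 1 was 1.74 times that in library 2. The ratio of Mcm6 to Mki67 TPM was accordingly 41.2 in library 1 and 18.4 in library 2.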

How the data were processed

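Polyadenylated RNA of mouse Treg cells was measured in 2 technical libraries of 1 biosample. Per the file headers, the deposited M21 gene and transcript tables hold estimated counts, in which shared reads are divided by a model, and also TPM, posterior mean TPM and FPKM. They rest on transcriptome alignments (mm10, GENCODE M21), per the deposited file lists. The authors also deposited whole-number counts on GENCODE M4 from genome alignments. No aligner or quantifier is named there. The effective length was the length less 49 bases in 100.0% of genes in library 1 and 99.99% in library 2, which leaves no room for a fragment length distribution.

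Rows that name no gene took 0.197% and 0.212% of estimated counts and stayed out of totals and tests. Depths were 34697128 and 32049199 estimated counts and 9576557 and 8937887 M4 counts. The members and lists were chosen with earlier results of these data known. All 52 members are named, with the 3 highest and 3 lowest by mean TPM of each further list. Some marker genes are not reported here. A gene counted as detected at 1 TPM in both libraries. Modules were compared by medians of log2(TPM + 1), described with no p-value since genes are not replicates.

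Estimated counts were rounded, scaled by TMM (edgeR 4.0.16, R 4.3.3) over genes with a summed count of 10 or more, and compared by an exact binomial test at an adjusted p of 0.05. PCR copies are not independent molecules, so this covers counting error only. With 1 library per side edgeR's quasi-likelihood test cannot be fitted, so its exact test with a common dispersion of 0.0228 was an alternative, as were DESeq2 1.42.0 size factors. Log2 ratios used a prior count of 0.5.

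Promoter windows of RefSeq were searched on both strands. Shared sequence was the percent of 50-base words of a gene's protein-coding transcripts found in GENCODE M21 transcripts of other genes. The gene's transcripts of other classes were not searched. Tables and figures used Python 3.11.15, pandas 2.3.3 and matplotlib 3.10.9.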

Additional observations from a re-analysis of the deposited data

How the results depend on the processing

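No paired analysis was possible because there was 1 group. The difference of medians, 2.05, was 1.93 with FPKM, 1.89 with posterior mean TPM and 2.04 with M4 counts scaled to library size and length. It was 1.65 with protein-coding transcripts only, 2.27 with a pseudocount of 0.1 and 2.26 without Ccne1, Ccne2, E2f1 and E2f2. Without replicate 1 or without replicate 2 it ranged over 1.90 and 2.20. Without members whose protein-coding transcripts share 5% or more of their 50-base words, a choice made after seeing the data, it was 2.17. Mitotic members detected numbered 7 at a minimum of 5 TPM, against 23 at 1 TPM, and replication members 23, against 28.

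Members called between libraries kept counts within 1.5 times under library totals, DESeq2 size factors, no count filter, a summed count of at least 100 and counts cut to whole numbers. With edgeR's exact test the counts were 0 replication and 0 mitotic members and 558 of all genes, against 12, 8 and 6834, and with M4 counts 1, 3 and 1747. Before the start alone, an E2F word was present in 7 replication members, against 11, and a CHR word in 8 mitotic members, against 14. Protein-coding shares of single members moved by more than their SD in 26 of 52 members when taken from estimated counts. The cause of these shifts was not tested. No test between libraries can be had without either library. Low mitotic members rest on few reads, down to 34 estimated counts, which limits their ratios.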
